A study of Mus musculus with 18 samples.

Results

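The genes described here encode 6 enzymes that remove superoxide and peroxides: the superoxide dismutases *Sod1* and *Sod2*, catalase (*Cat*), and the glutathione peroxidases *Gpx1*, *Gpx3* and *Gpx4*. They were taken by symbol from the count table and make up 6 of its 56748 genes, of which 27701 had at least 1 count. Superoxide dismutases turn superoxide into hydrogen peroxide and oxygen, SOD1 with copper and zinc mostly in the cytosol and SOD2 with manganese in the mitochondrial matrix. Catalase, a heme enzyme of the peroxisome, breaks hydrogen peroxide down to water and oxygen, whereas the glutathione peroxidases listed here are selenoproteins that reduce peroxides with glutathione. Macrophages make superoxide with the phagocyte NADPH oxidase when they are activated.

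RNA was sequenced from RAW 264.7 cells, an established mouse macrophage line and thus a single line, in 18 libraries, with 3 in each of 6 conditions. All 18 libraries carry the label WT. Control cells received no treatment, and a legend of the study places them in medium beside the cells stimulated for 12 h. The methods of the study do not state when the control was collected. Whether its time of harvest matched that of the stimulated cells is thus not certain. TBHQ (tert-butylhydroquinone, a phenolic food antioxidant that is also used to activate the transcription factor Nrf2) was given alone at 5 µM for 4 h. LPS (lipopolysaccharide of Gram-negative bacteria) was given at 0.1 µg/mL for 12 h, and PIC (poly I:C, a mimic of double-stranded RNA) at 20 µg/mL for 12 h. In LPS + TBHQ and PIC + TBHQ, 4 h of 5 µM TBHQ came before 12 h of the stimulus at the same doses. Cells with TBHQ alone were collected at the end of the 4 h, and the control received neither TBHQ nor its solvent, so TBHQ, solvent and time of harvest cannot be told apart in the comparison with the control. For LPS and PIC alone the study describes neither the solvent nor a 4 h period before the stimulus. TBHQ, solvent and that period thus cannot be told apart within LPS or PIC either. The study calls the libraries biological replicates but does not say that they began as separate cultures, so the p-values measure the spread between these samples.

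Each library held 14423390 to 18851626 counts (median 15742337). At these depths 3 counts, taken as the floor of detection, came to between 0.159 and 0.208 CPM (counts relative to library size), a floor for the error of counting alone. FPKM stands for fragments scaled by gene length and library total, here times a constant for each library. The constant was 0.943 to 0.951 in the control and 1.11 to 1.12 with PIC, so FPKM ranges compared between conditions depend on it. All 8 macrophage markers examined had a mean FPKM of at least 1, led by *Lyz2* at 4021. Markers of T cells, B cells, fibroblasts, epithelium, hepatocytes and erythroid cells had summed FPKM values of at most 0.354 in any library. The stimulus marker *Nos2*, the inducible nitric oxide synthase, had an FPKM of 32.0 ± 2.46 in the control, 164 ± 10.9 with LPS and 239 ± 4.31 with PIC (SD, n = 3). *Gclm*, a subunit of the enzyme that starts glutathione synthesis, had 17.9 ± 0.561 in the control and 63.4 ± 1.53 with TBHQ (SD, n = 3). Not every marker separated the treatments. *Hmox1*, fixed as a TBHQ marker, had 194 in the control and 829 with TBHQ, but 979.6 with LPS and 1164 with PIC, and its log2FC with TBHQ was -0.30 within LPS and -0.16 within PIC. *Cxcl10*, fixed as a stimulus marker, had 3.46 in the control, 5.52 with LPS, 36.6 with PIC and also 5.41 with TBHQ, and *Gsta3*, a further TBHQ marker, was too low to test. Changes are given as log2FC from edgeR's quasi-likelihood test in 1 fit over the 18 libraries, with a standard error (SE) from the replicates' log2 CPM, and a gene was called at an FDR below 0.05 over the 13691 genes tested. All 6 enzymes passed the filter on low counts.

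The comparison of each condition with the control asks what a stimulus or TBHQ did to these genes. With TBHQ alone 3 of the 6 were called, where 29.0% of all genes tested were. With LPS 5 of 6 were called (48.1% of all genes), and with PIC 6 of 6 (58.7%). LPS + TBHQ against the control gave 4 of 6 (43.7%), and PIC + TBHQ gave 4 of 6 (52.4%). With 6 genes these counts say little beyond the background, since a large part of the transcriptome moved as well. At the threshold used by the study, an FDR below 0.01 with a |log2FC| above 2, *Sod2* was the only enzyme of the 6 to pass, in PIC and in PIC + TBHQ against control. That threshold took 3.57% of all genes in PIC and 2.15% in PIC + TBHQ. The share was 1.64% for LPS, 0.964% for LPS + TBHQ and 0.190% for TBHQ alone.

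The effect of TBHQ inside a stimulated condition was read from LPS + TBHQ against LPS and from PIC + TBHQ against PIC. In LPS the enzymes called were *Cat*, *Sod1* and *Sod2*, or 3 of 6 against 23.9% of all genes. In PIC they were *Cat*, *Sod1* and *Gpx4*, again 3 of 6, against 31.3%. Each of these calls was toward a higher level with TBHQ. PIC against LPS gave 2 of 6 (27.7%), which were *Cat* and *Sod2*, and PIC + TBHQ against LPS + TBHQ gave the same 2 genes (20.2%). For the difference between the TBHQ change in PIC and that in LPS, edgeR called 0 of 6 (1.83%). At an unadjusted p below 0.05 there were 3 of 6 (14.2% of all genes), and DESeq2 called 1 (4.90% of the 7293 genes to which it gave an adjusted p).

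**Figure D1:**
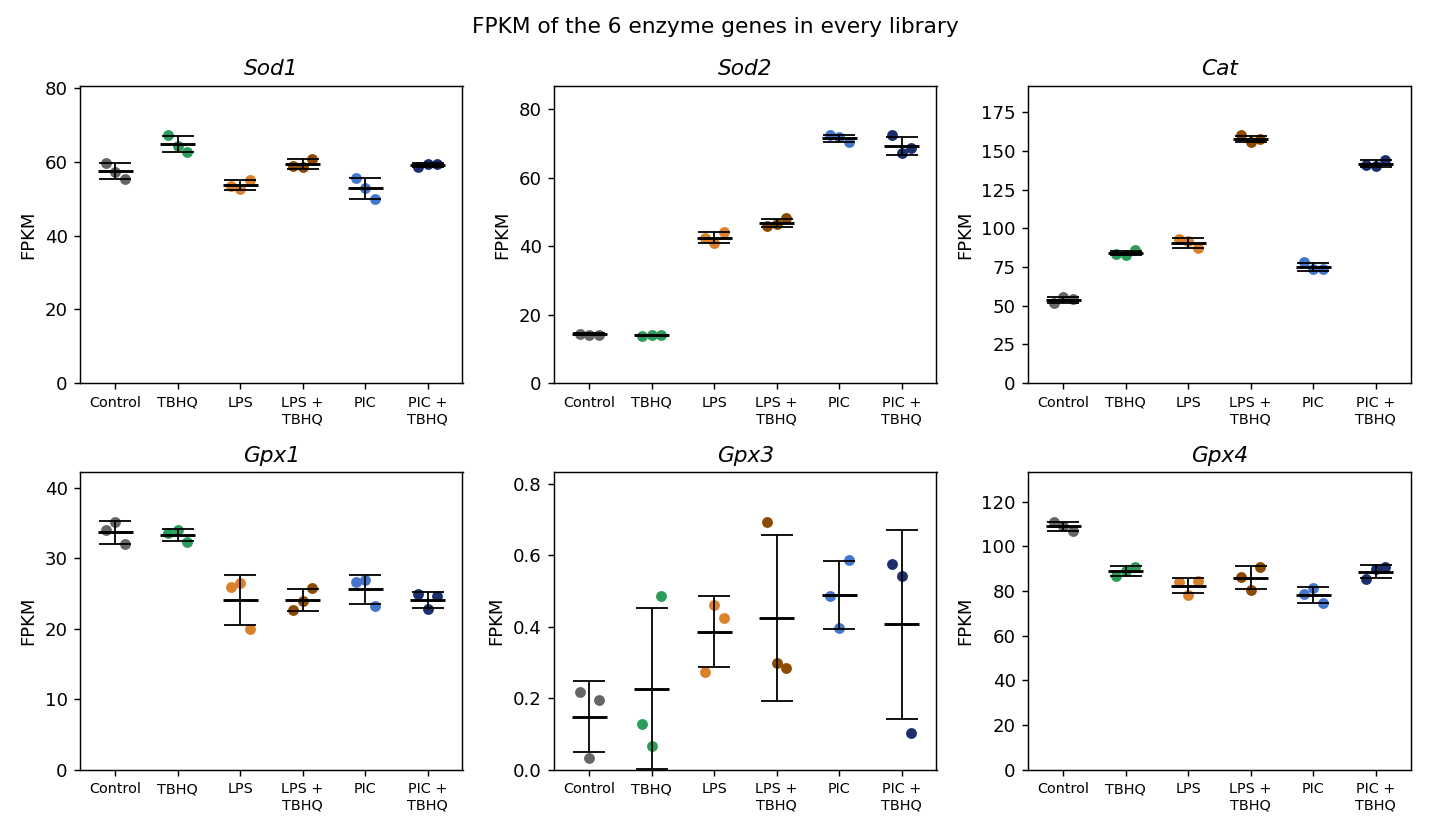
FPKM of the 6 enzyme genes (y axis, from 0, with a scale of its own in each panel) in the 6 conditions (x axis); points are libraries, and black lines are the mean with its SD over 3 libraries. *Cat* rose to 158 with LPS + TBHQ and *Sod2* to 71.5 with PIC, whereas *Gpx3* stayed below 0.7 throughout.

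*Sod1*, the cytosolic dismutase (ENSMUSG00000022982, chromosome 16, 90017642 to 90023217, plus strand, as the files place it), changed little. Its FPKM was 59.7, 57.4 and 55.4 in the control libraries and 67.2, 64.3 and 62.8 with TBHQ. With LPS it was 53.5, 52.7 and 55.2, and with LPS + TBHQ 58.8, 58.5 and 60.9. PIC gave 55.6, 53.0 and 49.9, and PIC + TBHQ gave 58.7, 59.5 and 59.5. The libraries with TBHQ alone were the highest and overlapped no other condition, while LPS and PIC were the lowest and overlapped each other. Control, LPS + TBHQ and PIC + TBHQ shared the range between them.

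TBHQ raised *Sod1* by a log2FC of 0.17 (SE 0.044, edgeR FDR = 0.00115) against the control, by 0.14 (SE 0.027, FDR = 0.00805) in LPS and by 0.18 (SE 0.047, FDR = 0.000743) in PIC. The changes in LPS and PIC differed by 0.035 (SE 0.055, edgeR FDR = 0.846). *Sod1* was lower with LPS than in the control by a log2FC of -0.10 (SE 0.038, FDR = 0.0314), and lower with PIC by -0.14 (SE 0.057, FDR = 0.00292), where 1 PIC library reached the range of the control. The first of these calls was fragile: its FDR rose to 0.164 without control replicate 1, 0.0624 without control replicate 2, 0.0931 without LPS replicate 1, 0.151 without LPS replicate 2 and 0.0579 without PIC replicate 2 (edgeR). The call with PIC was lost without PIC replicate 3 (edgeR FDR = 0.0823), and that of LPS + TBHQ against LPS without LPS + TBHQ replicate 3 (FDR = 0.0516). The log2FC against the control was 0.037 (SE 0.038, FDR = 0.483) with LPS + TBHQ and 0.036 (SE 0.033, FDR = 0.476) with PIC + TBHQ.

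The choice of scaling bears on a gene that moves this little. When the total library size took the place of TMM factors, the median of all genes shifted by -0.22 on the log2 scale in PIC against control, by -0.15 in PIC + TBHQ against control and by -0.13 in PIC against LPS, and by less than 0.1 in the other comparisons. The fall of *Sod1* then read -0.36 with PIC in place of -0.14, and -0.19 with LPS in place of -0.10. *Sod1* also turned from 0.036 to -0.11 in PIC + TBHQ against control (edgeR FDR = 0.0136), which is above the shifted median, and read -0.17 in PIC against LPS (FDR = 0.00102). No change called among the 6 enzymes turned its direction under this scaling. *Sod1* overlaps *Scaf4* on the other strand by 650 bases, and 3.42% of its 50-base words also occur in another gene.

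*Sod2*, the mitochondrial dismutase (ENSMUSG00000006818, chromosome 17, 13225733 to 13258950, plus strand), had the largest stimulus response of the 6. The control libraries had FPKM values of 14.5, 14.2 and 14.2, and those with TBHQ alone 13.9, 14.1 and 14.1. LPS gave 42.5, 41.0 and 44.1, and LPS + TBHQ gave 46.0, 46.5 and 48.2. PIC gave 72.4, 71.9 and 70.4, and PIC + TBHQ 72.4, 67.3 and 68.7. Every stimulated library lay above every unstimulated one, the libraries given PIC all exceeded those given LPS, and TBHQ made no gap between PIC and PIC + TBHQ.

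Against the control, *Sod2* rose 2.96-fold with LPS (log2FC 1.57, SE 0.033, edgeR FDR = 1.2e-28) and 4.95-fold with PIC (log2FC 2.31, SE 0.019, FDR = 3.3e-34). It ranked 337th and 292nd from the top among the 13691 genes by log2FC. PIC exceeded LPS by a log2FC of 0.74 (SE 0.033, edgeR FDR = 5.3e-19), and PIC + TBHQ exceeded LPS + TBHQ by 0.57 (SE 0.038, FDR = 1.1e-15). TBHQ alone left a log2FC of -0.030 (SE 0.015, FDR = 0.600), although the values of both groups lay side by side without overlap. Of all genes tested, 41.0% showed no overlap in this comparison. The share ranged from 34.9% (PIC + TBHQ against LPS + TBHQ) to 62.4% (PIC against control) over the comparisons of 2 conditions.

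TBHQ before LPS raised *Sod2* further by a log2FC of 0.14 (SE 0.036, edgeR FDR = 0.00207), and before PIC the log2FC was -0.032 (SE 0.035, FDR = 0.513). The difference between these changes was -0.17 (SE 0.050) with an edgeR FDR of 0.0538, above the threshold. It was called under some other settings, with an FDR of 0.00251 in DESeq2 and 0.0292 with RLE size factors in edgeR. Further calls came in edgeR without a filter on low counts (FDR = 0.0195) and without LPS replicate 3 (FDR = 0.0123). Of 27 alternatives 17 left it uncalled, and over all of them its FDR lay between 0.00251 and 0.139. Of the 10012 words of 50 bases in *Sod2*, 2107 also occur in another gene.

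Since the dismutases share a substrate, their levels were set against each other as a ratio of FPKM within each library. The ratio of *Sod2* to *Sod1* was 0.249 ± 0.00629 in the control and 0.217 ± 0.00906 with TBHQ (SD, n = 3). It was 0.790 ± 0.0115 with LPS and 0.789 ± 0.00646 with LPS + TBHQ (SD, n = 3). With PIC it was 1.36 ± 0.0554 and with PIC + TBHQ 1.17 ± 0.0540 (SD, n = 3). The LPS and LPS + TBHQ libraries overlapped, while each PIC library lay above each one with PIC + TBHQ (1.23, 1.13 and 1.16). The size of the ratio depends on the gene length used, since the files list 3970 bases for *Sod1* and 10008 for *Sod2*, and the principal transcripts have 641 and 5861. With the lengths of the principal transcripts, chosen after seeing the data, the ratio was 0.0685 in the control and 0.374 with PIC, since the lengths scale all libraries alike.

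*Cat*, the peroxisomal catalase (ENSMUSG00000027187, chromosome 2, 103284194 to 103315505, minus strand), responded to every treatment. Its FPKM was 51.7, 55.4 and 54.4 in the control, and 83.7, 83.1 and 85.8 with TBHQ. LPS gave 93.0, 92.2 and 87.1, and PIC gave 78.1, 73.8 and 73.9. LPS + TBHQ gave the highest values, 160.2, 156 and 158, followed by PIC + TBHQ at 141, 140.3 and 144. None of the 6 conditions overlapped another, and the order from high to low was LPS + TBHQ, PIC + TBHQ, LPS, TBHQ, PIC and control.

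*Cat* rose 1.56-fold with TBHQ alone (log2FC 0.64, SE 0.031, edgeR FDR = 6.0e-16), 1.68-fold with LPS (0.75, SE 0.041, FDR = 1.1e-18) and 1.38-fold with PIC (0.47, SE 0.040, FDR = 3.6e-13). With total library size as the scaling, the log2FC with PIC was 0.25, and PIC + TBHQ against LPS + TBHQ gave -0.24. TBHQ before the stimulus raised *Cat* by a log2FC of 0.80 in LPS (SE 0.031, edgeR FDR = 2.5e-19) and 0.92 in PIC (SE 0.031, FDR = 8.1e-21), or 1.74-fold and 1.90-fold. These changes ranked 202nd and 205th from the top among 13691 genes. Their difference was 0.13 (SE 0.044, edgeR FDR = 0.222). Against the control, LPS + TBHQ gave 1.54 (SE 0.031, FDR = 4.2e-28) and PIC + TBHQ 1.39 (SE 0.032, FDR = 5.6e-27). PIC was lower than LPS, by a log2FC of -0.28 (SE 0.041, edgeR FDR = 2.1e-07), and PIC + TBHQ was lower than LPS + TBHQ, by -0.15 (SE 0.017, FDR = 0.00118), the opposite order to that of *Sod2*. No 50-base word of *Cat* occurs in another gene, and no other gene overlaps its exons.

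*Gpx4* (ENSMUSG00000075706, chromosome 10, 79883000 to 79892273, plus strand), which reduces lipid hydroperoxides in membranes and so guards against ferroptosis, fell in every treatment. It had FPKM values of 111, 109 and 107 in the control and 86.8, 89.1 and 91.0 with TBHQ. With LPS the values were 84.2, 78.4 and 84.5, and with LPS + TBHQ 86.3, 80.5 and 90.8. PIC gave 78.8, 81.3 and 74.5, and PIC + TBHQ gave 85.5, 89.7 and 91.0. Only the control stood apart from all other conditions. LPS and PIC both lay below PIC + TBHQ and TBHQ, and LPS + TBHQ overlapped LPS, PIC, TBHQ and PIC + TBHQ.

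The log2FC of *Gpx4* against the control was -0.29 with TBHQ (SE 0.024, edgeR FDR = 1.9e-06), -0.41 with LPS (SE 0.037, FDR = 7.3e-10) and -0.50 with PIC (SE 0.041, FDR = 4.5e-12). It was -0.35 with LPS + TBHQ (SE 0.053, FDR = 2.1e-08) and -0.30 with PIC + TBHQ (SE 0.032, FDR = 3.3e-07). Within PIC, TBHQ raised it by 0.19 (SE 0.047, edgeR FDR = 0.000810), and within LPS the log2FC was 0.058 (SE 0.061, FDR = 0.391). A difference between these changes was not shown (0.14, SE 0.077, edgeR FDR = 0.314). PIC against LPS gave -0.086 (SE 0.050, FDR = 0.166) and, with total library size, -0.22 (edgeR FDR = 0.000172). Of the 50-base words of *Gpx4*, 34.7% occur in another gene. Among the genes that share them is the transcribed pseudogene *Gpx4-ps2*, which had 294 to 519 counts a library beside 1855 to 3112 for *Gpx4*.

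*Gpx1* (ENSMUSG00000063856, chromosome 9, 108216102 to 108217542, plus strand), the widely expressed cytosolic glutathione peroxidase, was lower under both stimuli and did not follow TBHQ. Its FPKM was 34.0, 35.2 and 32.0 in the control and 33.6, 34.0 and 32.4 with TBHQ, in overlapping ranges. LPS gave a mean of 24.1 ± 3.60 (SD, n = 3), and LPS + TBHQ gave 22.7, 23.9 and 25.8. PIC gave 26.6, 27.0 and 23.3, and PIC + TBHQ gave 24.9, 22.8 and 24.7. All 12 stimulated libraries lay below the 6 unstimulated ones, and the 4 stimulated conditions overlapped one another.

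The log2FC of *Gpx1* against the control was -0.49 with LPS (SE 0.14, edgeR FDR = 1.8e-06) and -0.42 with PIC (SE 0.080, FDR = 1.5e-05). It was -0.49 with LPS + TBHQ (SE 0.067, FDR = 1.5e-06) and -0.49 with PIC + TBHQ (SE 0.059, FDR = 1.4e-06). TBHQ gave -0.020 alone (SE 0.046, edgeR FDR = 0.878), -0.00087 within LPS (SE 0.14, FDR = 0.995) and -0.072 within PIC (SE 0.082, FDR = 0.538). The spread with LPS was the widest of the gene, since LPS replicate 3 held 412 counts and the other LPS libraries 530 and 549. The counting of *Gpx1* has a limit: 1210 of its 1441 listed bases lie within the span of a long noncoding RNA on the other strand. This RNA (ENSMUSG00000121068) had 7 counts in all 18 libraries together. The pattern over all genes was that of counting without regard to strand. Of 513 genes with 50 to 90% of their bases covered by exons of the other strand, 61.2% had a count. The share was 48.0% of 36068 genes free of such overlap, and 1 of 223 covered throughout had a count. The overlap of *Gpx1* was measured by gene span, so it was not placed in these classes. Whether and how far this overlap lowers the counts of *Gpx1* was not tested.

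*Gpx3* (ENSMUSG00000018339, chromosome 11, 54793279 to 54801203, plus strand), the secreted glutathione peroxidase of plasma, was near the floor of detection. Single libraries held 1 to 21 counts of it, and its FPKM ranged from 0.0339 to 0.693. Summed over 3 libraries, the counts were 13 in the control, 21 with TBHQ, 30 with LPS and 40 with PIC. They were 39 with LPS + TBHQ and 33 with PIC + TBHQ. Libraries of a condition differed widely, with 4, 2 and 15 counts for TBHQ and 16, 14 and 3 for PIC + TBHQ. TBHQ alone gave a log2FC of 0.62 against the control (SE 0.76, edgeR FDR = 0.567), which ranged from -0.56 to 1.03 with 1 library left out. The log2FC against the control was 1.35 with LPS (SE 0.51, edgeR FDR = 0.0865) and 1.69 with PIC (SE 0.49, FDR = 0.0187). It was 1.48 with LPS + TBHQ (SE 0.59, edgeR FDR = 0.0527) and 1.41 after TBHQ and PIC (SE 0.78, FDR = 0.0635), which became calls under some alternatives, such as no filter on low counts (FDR = 0.0269 and 0.0400). The call with PIC was lost without control replicate 2, which held 1 count (log2FC 1.23, edgeR FDR = 0.111), and without PIC replicate 3 (1.55, FDR = 0.0656). With any 1 library left out, the log2FC ranged from 0.89 to 1.69 with LPS, from 0.95 to 1.82 with LPS + TBHQ and from 0.95 to 1.88 with PIC + TBHQ. Neither test of TBHQ within a stimulus called it (0.13, SE 0.41, FDR = 0.902 in LPS and -0.28, SE 0.64, FDR = 0.725 in PIC, edgeR), and leaving out 1 library turned the direction of each (-0.40 to 0.36 in LPS and -0.64 to 0.18 in PIC).

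**Figure D2:**
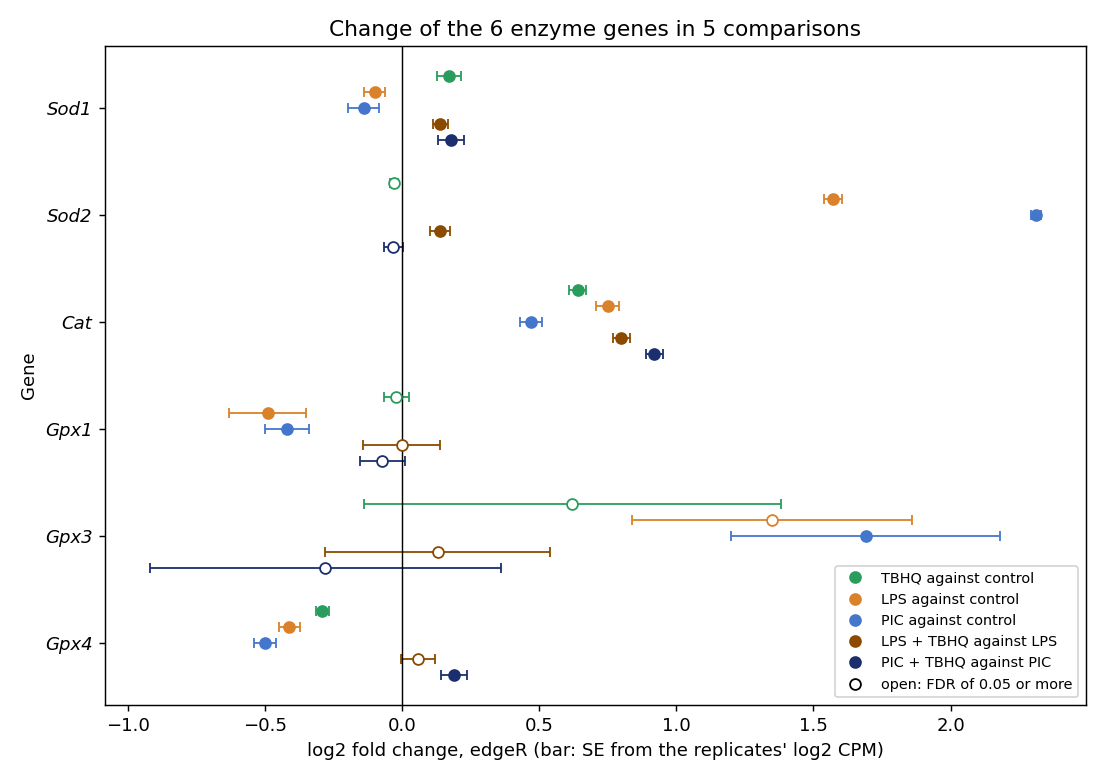
Log2 fold change from edgeR (x axis) of each enzyme gene (y axis) in 5 comparisons, with bars for the SE over the replicates' log2 CPM; filled points had an FDR below 0.05. *Sod2* moved with the stimuli (1.57 and 2.31), *Cat* with every treatment, and *Gpx1* and *Gpx4* lay below 0 under the stimuli.

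Compared per length, the order of the 6 enzymes changed with treatment. By FPKM the control held *Gpx4* (109), *Sod1* (57.5), *Cat* (53.8), *Gpx1* (33.7), *Sod2* (14.3) and *Gpx3* (0.148) from high to low, and neighbours in this order did not overlap in any library. *Cat* led with LPS, LPS + TBHQ and PIC + TBHQ, and with PIC the libraries of *Gpx4* (78.2) and *Cat* (75.3) overlapped. *Sod2* passed *Gpx1* with either stimulus and *Sod1* with PIC. Of the summed FPKM of the 6, *Cat* took 20.1% ± 0.852 in the control, 30.9% ± 0.894 with LPS and 42.2% ± 0.915 with LPS + TBHQ (SD, n = 3). *Gpx4* took 40.6% ± 0.343 in the control and 22.9% ± 0.833 with LPS + TBHQ (SD, n = 3). The share of *Sod2* was 5.33% ± 0.0871 in the control and 23.5% ± 0.462 with PIC (SD, n = 3). The order between genes depends on the lengths as well: with principal transcript lengths *Sod1* was the highest of the 6 in every condition, at 52.7% of the sum in the control. *Cat* then took 7.97% in the control, 13.4% with LPS and 19.9% with LPS + TBHQ, and *Gpx4* 29.0% in the control and 19.4% with LPS + TBHQ. *Sod2* took 3.61% in the control and 17.5% with PIC by these lengths.

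The genes whose pattern over the 18 libraries was most like each enzyme were taken by Pearson's r of log2 CPM among 10451 genes with a mean of at least 50 counts. These libraries share 6 conditions, so r mostly describes the condition means. For *Cat* they were *Blvrb* (r = 0.975), *Serpinb1b* (0.973) and *Tcp11l1* (0.964), and *Blvrb*, biliverdin reductase B, went from an FPKM of 21.3 in the control to 83.8 with LPS + TBHQ and 87.3 with PIC + TBHQ, in another order than *Cat*. *Sod2* was matched most closely by *Hcls1* (0.998), *Cndp2* (0.992) and *Procr* (0.992). *Sod1* was nearest to *Urb1* (0.921), *Arrb2* (0.919) and *Arhgef1* (0.916), *Gpx1* to *Ppp1cc* (0.930), *Hnrnpa3* (0.923) and *2810025M15Rik* (0.923), and *Gpx4* to *Pld4* (0.913), *Serpinb1c* (0.913) and *Sirpa* (0.911). For *Gpx3*, at its few counts, r was at most 0.765, with *Cxcr5*, *Lonrf1* (0.765) and *Zfp687* (0.762).

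The other genes of the dismutase and glutathione peroxidase families were hardly present. *Sod3*, *Gpx2*, *Gpx6* and *Gpx8* had 0 counts in all libraries, *Gpx5* had 3 and *Gpx7* had 1.

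Lists of genes around the 6 enzymes were counted in 4 comparisons, for which all genes gave 24.0% higher and 24.1% lower with LPS, 28.6% and 30.1% with PIC, 11.7% and 12.2% with TBHQ in LPS, and 15.8% and 15.5% with TBHQ in PIC. The median log2FC of all genes lay within 0.015 of 0 in each. This balance depends on the scaling: with total library size, LPS gave 2454 of 13691 genes higher and 4558 lower, PIC 2379 and 6635, TBHQ in LPS 2061 and 1401, and TBHQ in PIC 3398 and 1436. The directions within the lists were not recounted under that scaling. Of the 3 copper-handling genes tested, *Ccs*, the copper chaperone for SOD1, was lower with LPS (log2FC -0.26) and with PIC (-0.31), whereas the copper importer *Slc31a1* was higher with LPS (0.57) and PIC (0.86) and lower when TBHQ came first (-0.21 and -0.33). *Atox1*, another copper chaperone, was lower with LPS (-0.26) and PIC (-0.14) and higher with TBHQ in LPS (0.17). Of 6 genes for glutathione synthesis and reduction, which feed the peroxidases, 4 were higher and 0 lower with LPS and with PIC, and 6 of 6 were higher with TBHQ in either stimulus (median log2FC 0.53 and 0.38). The cystine carrier *Slc7a11* led with the stimuli (2.10 and 2.51) and *Gclm* with TBHQ (0.98 and 1.10). Of 11 peroxiredoxin and thioredoxin enzymes, an alternative route for peroxides, 4 were higher and 1 lower with LPS, 6 and 1 with PIC, 4 and 1 with TBHQ in LPS, and 5 and 2 with TBHQ in PIC, and the peroxiredoxin *Prdx1* rose by 0.90 and 0.66 with TBHQ.

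Of 7 genes for selenocysteine synthesis and insertion, on which the peroxidases depend, 0 were higher and 3 lower with LPS, and 2 higher and 4 lower with PIC (median -0.21 and -0.50), with *Sephs2*, the selenophosphate synthetase, at -0.58 with LPS. TBHQ gave 2 higher and 1 lower in LPS and 1 and 1 in PIC. Of 16 other selenoproteins tested, which again count *Sephs2*, *Txnrd1* and *Txnrd2* from the lists above, 7 were higher and 7 lower with either stimulus, with *Selenoh* lowest (-1.02 and -1.10) and *Dio2* highest (2.08 and 1.81), and TBHQ gave 3 higher with 2 lower in LPS and 3 with 3 in PIC. Of 15 peroxisome biogenesis genes 3 were higher and 2 lower with LPS, 3 and 6 with PIC, and TBHQ raised 2 in LPS and 3 in PIC, among them *Pex26* (0.53 in PIC). Of 4 peroxisomal oxidases tested, 2 were higher with LPS and 2 higher with 2 lower in PIC, and TBHQ called 0 in LPS and 1, lower, in PIC. The phagocyte NADPH oxidase had 6 of 7 genes higher with LPS and with PIC, led by *Cybb*, its catalytic subunit (1.02 and 1.79), and TBHQ gave 2 higher with 3 lower in LPS and 0 with 3 in PIC. Of 9 lipid peroxidation and ferroptosis genes around *Gpx4*, 5 were higher and 3 lower with either stimulus, with *Alox5* at -2.12 in each, and TBHQ gave 0 higher with 2 lower in LPS and 1 with 3 in PIC.

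All 6 enzymes matched an entry in the RefSeq promoter table (GRCm38.p6), with 9 start sites among them. The 250 bases before each start were searched on both strands for letters of the antioxidant response element (TGACNNNGC, in 10.2% of 32851 promoters), an NF-kB site (1.41%), the core of the interferon-stimulated response element (2.98%) and AP-1 (TGANTCA, 6.75%). A single match was found, to the antioxidant response element letters in *Sod1* on the other strand, from -56 to -48, and the others of these letters were not in these windows. The promoter of *Sod1* is shown for this match, given in capitals, beside those of *Cat*, which moved most with TBHQ, and *Sod2*, which moved most with the stimuli. They lie at chr16:90220512-90220761 (plus strand), chr2:103485154-103485403 (minus strand) and chr17:13007589-13007838 (plus strand).
Sod1: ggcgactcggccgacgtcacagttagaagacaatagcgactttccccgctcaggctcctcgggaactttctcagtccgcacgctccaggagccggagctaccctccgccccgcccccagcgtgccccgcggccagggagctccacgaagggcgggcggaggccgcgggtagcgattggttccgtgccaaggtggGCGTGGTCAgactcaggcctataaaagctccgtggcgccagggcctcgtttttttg
Cat: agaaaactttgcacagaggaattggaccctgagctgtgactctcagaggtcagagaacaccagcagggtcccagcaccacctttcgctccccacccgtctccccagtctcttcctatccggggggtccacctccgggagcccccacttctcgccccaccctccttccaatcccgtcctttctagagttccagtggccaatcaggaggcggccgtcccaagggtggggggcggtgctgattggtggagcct
Sod2: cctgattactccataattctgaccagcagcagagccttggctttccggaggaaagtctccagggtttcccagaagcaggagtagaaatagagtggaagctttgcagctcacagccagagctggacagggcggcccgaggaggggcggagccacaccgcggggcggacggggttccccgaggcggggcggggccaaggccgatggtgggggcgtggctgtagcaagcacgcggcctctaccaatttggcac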

How the data were processed

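The authors deposited raw counts per gene, made with featureCounts 1.5.0-p3 on HISAT2 2.0.5 alignments (submitters' processing notes, which also name StringTie 1.3.3b), and FPKM values. The study's methods describe poly(A) selection and libraries that keep the strand, whereas the labels name directional and non-directional libraries. Genes covered throughout by exons of the other strand had almost no counts, as when reads are counted without regard to strand. The deposited FPKM equalled counts per listed gene length and library total times a constant for each library (0.943 to 1.12). Without this constant the mean of *Sod1* was 60.8 in the control and 47.4 with PIC, beside FPKM means of 57.5 and 52.8. The notes name GRCm38 and mm39; of 52073 shared identifiers 50588 had another start than in the GRCm38 annotation, so gene positions are those of the files and not of GRCm38. Libraries were grouped by their GEO labels.

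Counts were tested with edgeR 4.0.16 in R 4.3.3: filterByExpr, TMM, glmQLFit and glmQLFTest in 1 fit over 18 libraries with 1 coefficient per condition, and Benjamini-Hochberg adjustment over 13691 genes. The test was tested on simulated data. Python 3.11.15 with pandas 2.3.3, numpy 2.4.6, scipy 1.17.1 and matplotlib 3.10.9 did the rest. Depth was 14423390 to 18851626 counts per library. No replicates of a condition had identical values. Alternatives were DESeq2 1.42.0, limma 3.58.1 on log2(FPKM + 1) and log2(FPKM + 0.1), the compared conditions only, RLE factors, total library size, no filter or a mean of 50 counts, the replicate block, other thresholds, other gene lengths, and leaving out each library.

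The 6 enzymes and the gene lists were chosen with earlier results of these data known. Genes named were the 6 enzymes, the 3 genes most like each, the treatment and cell type markers, and from each list the highest and lowest log2FC among genes called with a mean of at least 50 counts; in lists of at most 11 genes any gene could be named.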

Additional observations from a re-analysis of the deposited data

How the results depend on the processing

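Of 1612 alternative values of the log2FC of the 6 enzymes in 10 comparisons, 1577 kept their side of the threshold without turning a called direction, 13 lost a call, 21 gained one and 1 turned direction as a call (*Sod1* in PIC + TBHQ against control, -0.11 with total library size); the cause was not tested. Of the 1577, 50 had the other sign, with neither value called. All alternatives kept the calls of *Cat* and *Gpx1*. *Sod1* with LPS was -0.10 in edgeR on the compared conditions only, -0.081 with a mean of at least 50 counts, -0.094 in limma on log2(FPKM + 1) and -0.10 on log2(FPKM + 0.1), not called in any of these, and -0.13 to -0.076 with 1 library left out. With 1 library left out it was -0.17 to -0.084 with PIC and 0.12 to 0.16 for TBHQ in LPS, and *Gpx3* with PIC was 1.23 to 2.03. In limma on log2(FPKM + 1) *Gpx3* with PIC was 0.38, still called. *Gpx3* had no value with a mean of at least 50 counts, in the fits of a condition and the control alone, where the filter took it out, and in 3 DESeq2 comparisons without the control, where it had no adjusted p.

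The counts of the 6 enzymes called kept within 1.5 times under every alternative but these. At an FDR below 0.01 with |log2FC| above 2, 1 was called in PIC and in PIC + TBHQ against control and 0 in the other comparisons. At an FDR below 0.05 with |log2FC| above 1, LPS against control gave 1, the other stimulated conditions against control 2 each, and the rest 0. Of all genes, the latter took 7.46% in LPS, 13.2% in PIC, 5.27% in LPS + TBHQ and 9.26% in PIC + TBHQ against control. PIC against LPS gave 4 with total library size, where 39.1% of all genes were called in place of 27.7%. The difference between the TBHQ changes gave 1 (*Sod2*) in DESeq2, on the compared conditions only, with RLE factors, without a filter, with a mean of at least 50 counts and with the replicate block (4.90%, 1.81%, 1.98%, 1.37%, 2.91% and 2.00% of all genes given an adjusted p), and 0 to 1 with 1 library left out (LPS replicate 3, PIC replicate 2, PIC replicate 3 or PIC + TBHQ replicate 1). With 1 library left out the count ranged from 4 to 5 with LPS, 4 to 6 with PIC and 2 to 3 with TBHQ in LPS. It also ranged from 4 to 5 with LPS + TBHQ and with PIC + TBHQ against control, where the main count was 4.

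Calls in the gene lists, summed over 4 comparisons, fell at the study threshold and at |log2FC| above 1 to 0 and 0 of 9 for other dismutase, peroxidase and copper genes, 2 and 3 of 20 for glutathione, 0 and 5 of 24 for peroxiredoxins and thioredoxins, 0 and 0 of 14 for selenocysteine, 1 and 4 of 39 for selenoproteins, 0 and 0 of 19 for peroxisome biogenesis, 0 and 2 of 7 for peroxisomal oxidases (4 with a mean of at least 50 counts), 0 and 2 of 20 for the NADPH oxidase, and 2 and 3 of 22 for lipid peroxidation. Of all genes, 1.64% passed the study threshold with LPS and 3.57% with PIC. At an FDR below 0.05 with |log2FC| above 1 the share was 7.46% with LPS and 13.2% with PIC. It was 1.86% for TBHQ in LPS and 2.38% for TBHQ in PIC. These shares are for single comparisons, whereas the list counts are sums.

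The summed FPKM of the 6 enzymes (control 268, TBHQ 285, PIC 304, PIC + TBHQ 384) was 284, 300.5, 273 and 364 when recomputed from counts and listed length. With PIC the sum thus lay above the control by FPKM and below it when recomputed. With principal transcript lengths, chosen after seeing the data, it was 714 in the control and 752 with TBHQ alone, 670.0 and 797 in LPS without and with TBHQ, and 629 and 778 in PIC likewise, and the ratio of *Sod2* to *Sod1* was 0.0685, 0.0597, 0.218, 0.218, 0.374 and 0.323 in this order. With *Gpx4* and *Gpx4-ps2* summed, also chosen after seeing the data, no call of *Gpx4* changed.

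A pairing of libraries by replicate number was weak, and whether it differs from none was not tested: over 45 same-numbered pairs the correlation of deviations from the condition mean was -0.0719 to 0.142 (mean 0.0245, against -0.0123 for other numbers), and 11 of 18 libraries were closest to their own number, where 6 would be without pairing. With the replicate block the calls over all genes went from 3274 to 3316 for TBHQ in LPS and from 4285 to 4342 for TBHQ in PIC, and no call among the 6 enzymes changed except the gain of *Sod2* named above (edgeR FDR = 0.0473). Depth limits *Gpx3* most, at 1 to 21 counts.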
